A study of Mus musculus with 18 samples.

Results

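The genes described here are 41 genes of DNA replication and S phase, out of 32789 genes in the deposited expression table of mouse alveolar macrophages, which live in the airspaces of the lung and clear them. They were chosen by name, for their roles in replication licensing, DNA synthesis, nucleotide supply and entry into S phase. This choice, and that of the lists set beside them, was made with earlier results of these data known. Their counts beside the shares of all genes are therefore descriptive. All 41 were found in the table and all 41 passed the filter on low counts. Macrophages were collected by bronchoalveolar lavage and enriched with CD11c magnetic beads, and polyA RNA was sequenced in 18 libraries. There were 6 groups of 3 libraries. The knockouts carried CD11c-Cre, a recombinase driven by the promoter of an integrin gene of macrophages and dendritic cells, and conditional alleles of Vhl and Hif1a (the Vhl/Hif1a knockout), of Vhl and Hif2a, gene symbol Epas1 (the Vhl/Hif2a knockout), or of Vhl, Hif1a and Hif2a (the triple knockout). All knockouts therefore share the deletion of Vhl, which encodes the protein that marks HIF-1α and HIF-2α for destruction. Each knockout had its own control, which carried the same floxed alleles. The labels do not say whether the controls lacked Cre, how old the animals were, or whether a library came from 1 animal or from a pool, so p-values here measure the spread between libraries, which may be technical in part.

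DNA is copied once per cell division. In G1 the origin recognition complex, CDC6 and CDT1 load the ring of MCM2 to MCM7 onto origins, and in S phase CDC45, the GINS complex and MCM10 turn that ring into the active helicase, behind which primase and the DNA polymerases copy the strands. Transcription of most of these genes rises at the G1 to S transition under E2F factors, whereas genes of mitosis peak later and are controlled in part through a promoter element named CHR. Alveolar macrophages maintain themselves in the lung by dividing there.

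The promoters of the genes were searched for elements of cell cycle genes and of HIF targets. In all, 4 words of the E2F site (TTTCCCGC, TTTGGCGC, TTTCGCGC and TTTGCCGC), the CHR word TTTGAA and the core of the HIF-binding site ACGTG were searched on both strands of RefSeq promoters (GRCm38.p6, from 250 bases before to 50 after each start). The words of a given element may overlap each other. Entries were found for 33 of the 41 symbols, with 39 promoters. Of these, 15 (38.462%) held an E2F word, against 2.265% of all 32851 promoters in the table and 4.762% of 42 promoters matched to 39 of 46 mitosis genes. CHR was in 12.821% of the promoters of the replication genes, in 76.19% of the mitosis promoters and in 17.893% of all promoters. The HIF core was in 25.641%, 26.19% and 19.625%. Stretches of 80 bases (GRCm38.p6) are shown to give the E2F words in place, with Mki67, a mitosis gene, as the contrast. The 4 replication genes shown have them before a RefSeq start and outside annotated exons. For Uhrf1 that start and the stretch lie inside the gene as annotated (chr17:56303321-56323486). The capitals mark the E2F words, and in Mki67 the CHR words.
Mcm5 (chr8:75109324-75109403, plus strand): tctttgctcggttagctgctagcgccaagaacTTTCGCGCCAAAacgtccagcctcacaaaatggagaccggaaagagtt
Mcm6 (chr1:128359709-128359788, minus strand): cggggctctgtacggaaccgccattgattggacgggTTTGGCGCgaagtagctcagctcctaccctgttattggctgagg
Uhrf1 (chr17:56304092-56304171, plus strand): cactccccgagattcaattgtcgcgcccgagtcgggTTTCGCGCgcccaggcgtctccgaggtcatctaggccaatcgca
Dtl (chr1:191575545-191575624, minus strand): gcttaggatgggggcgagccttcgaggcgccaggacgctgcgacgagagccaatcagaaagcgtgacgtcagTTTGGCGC
Mki67 (chr7:135716435-135716514, minus strand): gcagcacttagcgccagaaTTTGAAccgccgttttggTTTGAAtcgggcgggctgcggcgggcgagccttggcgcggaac
A word in these windows is a match of letters and was not tested as a binding site. Mcm5, Mcm6 and Uhrf1 were among the genes that fell in the Vhl/Hif2a knockout, by the test described below. Mcm5 had a log2 fold change ± SE of -0.50 ± 0.16 (edgeR adjusted p = 0.0425) and Mcm6 -0.52 ± 0.15 (edgeR adjusted p = 0.021). Knockout and control libraries overlapped for both, and Dtl did not pass in that knockout. Of the 15 genes with an E2F word, 8 fell there, and of the 18 matched genes without one, 11 fell.

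**Figure D1:**
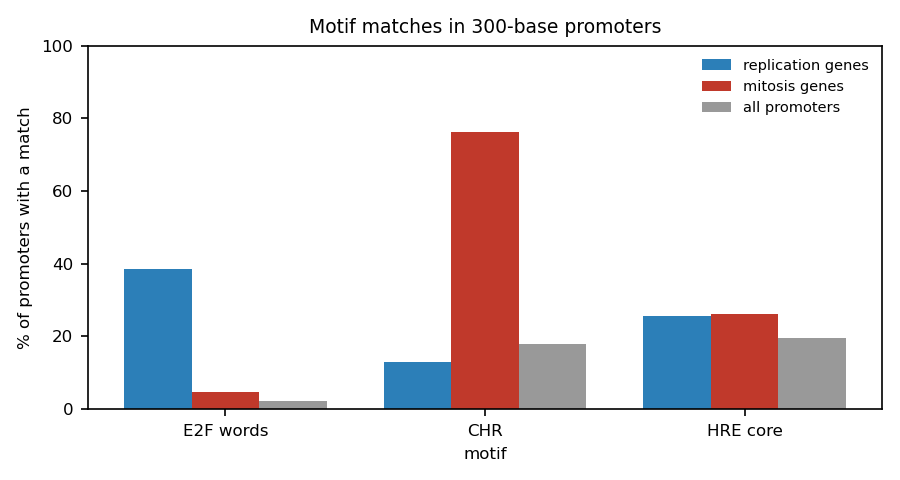
Share of 300-base promoters (y axis, percent) with a match to each element (x axis), for the replication genes, for mitosis genes and for all promoters of the RefSeq table. E2F words were in 38.462% of the replication promoters and 4.762% of the mitosis promoters, and CHR in 12.821% and 76.19%.

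The libraries held about 19230000 to 34015000 counts, and the Vhl/Hif2a knockouts were deeper (30787000 to 34015000) than their controls (19230000 to 25794000). Vhl RNA was at 1.92 to 3.09 CPM (counts scaled to a common library size) in the 9 knockout libraries and at 12.2 to 20.1 CPM in the 9 controls, with no overlap. Counts over a whole gene do not check a partial deletion. Hif1a was at 58.7 to 78.6 CPM in the libraries labelled Vhl/Hif2a knockout (controls 179 to 242) and at 166 to 209 CPM in those labelled Vhl/Hif1a knockout (controls 225 to 232). Hif1a was at 236 CPM or above in the triple knockouts (controls 137 to 251), which are also labelled as lacking it. Epas1 was at 48.0 to 58.6 CPM in the libraries labelled Vhl/Hif2a knockout (controls 23.2 to 35.1), at 36.8 to 60.4 CPM in those labelled Vhl/Hif1a knockout (controls 33.2 to 35.9) and at 30.6 to 38.4 CPM in the triple knockouts (controls 32.6 to 51.4). These counts therefore do not check the Hif1a and Hif2a genotypes, nor whether the labels of the double knockouts are the right way round, and each result for a double knockout is that of the libraries so labelled. All 16 alveolar macrophage markers were detected. The 10 T and NK cell markers were each under 1 CPM in every library, with Ncr1 at 0, so RNA of these cells was at or near 0. Triple control 2 stood apart: its counts differed from those of controls 1 and 3 by a chi-square per degree of freedom of 126 and 128, against 8.81 to 43.8 for the other pairs within groups.

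All 41 genes were expressed in the controls. Per kilobase of merged exons, Pcna, the sliding clamp, had the highest level, 87.0 ± 5.23 CPM per kb (SD, n = 9 control libraries). It was followed on the same scale by Rrm2 (24.5 ± 1.67), Mcm3 (23.7 ± 3.41), Mcm4 (20.7 ± 1.71) and E2f1 (20.4 ± 2.95). Over the 9 libraries the range of each of these 4 overlapped that of its neighbour in this order, and the range of Pcna (78.3 to 93.6) lay above them. The lowest levels per kb were those of Pole (2.01 ± 0.259), Mcm10 (1.70 ± 0.117) and Dtl (0.972 ± 0.142).

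Many of the genes fell in the Vhl/Hif2a knockout, most were lower without passing the test in the Vhl/Hif1a knockout, and in the triple knockout they lay on both sides of 0. A gene is said to have fallen or risen where edgeR's quasi-likelihood test gave a Benjamini-Hochberg adjusted p under 0.05 over the 12900 genes tested. In the Vhl/Hif2a knockout 20 of 41 fell and 0 rose, where 7.01% of all genes tested fell and 7.68% rose. These 20 were Mcm2, Mcm5, Mcm6, Mcm7, Mcm10, Cdc6, Cdc45, Prim1, Pole, Pcna, Rfc5, Lig1, Clspn, Rrm1, Rrm2, Tyms, Chaf1a, Uhrf1, E2f2 and Ccne1. The log2 fold change was below 0 for 38 of 41 genes, with a median of -0.39, against 0.00 over all genes tested, and the lowest was -0.67, so no gene lost as much as 1 log2 unit. At an unadjusted p under 0.05, 27 were lower and 0 higher. The Vhl/Hif1a knockout gave 1 of 41 that fell, Clspn, where 1.42% of all genes fell and 2.22% rose. Here 36 of 41 were below 0, the median was -0.28 (0.00 over all genes), and 18 were lower and 0 higher at an unadjusted p under 0.05. Without triple control 2 in the shared estimate of the spread, 6 fell there (Mcm10, Prim2, Clspn, Rrm1, Rrm2 and E2f2), and by DESeq2 4 passed. Calls in either direction also rose over all genes. They went from 469 of 12900 to 861 of 13151 without that library. By DESeq2 they were 653 of 20759 genes with any count, a total that includes genes its own filter may have left out. In the triple knockout 0 of 41 passed by edgeR or by DESeq2, where 0.0388% of all genes did. There 22 genes were below 0 and 19 above, the median was -0.03 (-0.01 over all genes), and 1 gene was lower and 2 were higher at an unadjusted p under 0.05.

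**Figure D2:**
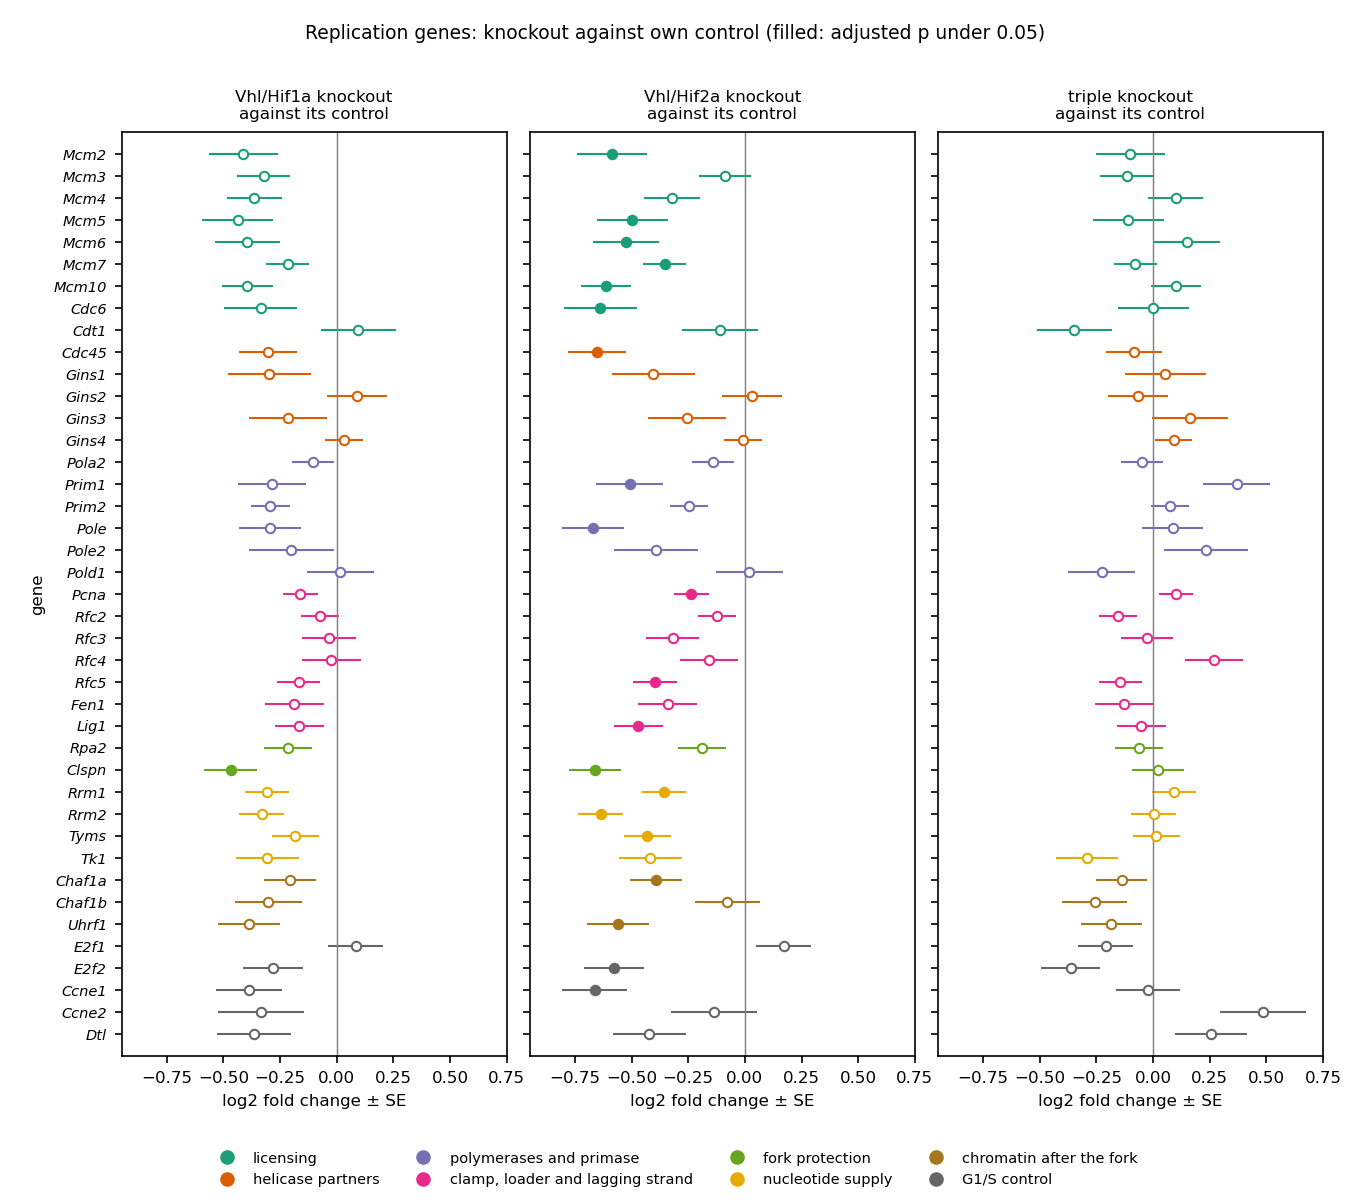
Log2 fold change (x axis, with SE) of each of the 41 genes (y axis, coloured by role) in the 3 knockouts against their own controls, 3 libraries a group. Filled points passed edgeR's test: 1 in the Vhl/Hif1a panel, 20 in the Vhl/Hif2a panel and 0 in the triple panel.

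Ranges of libraries were also compared directly. In the Vhl/Hif2a cross every knockout library was below every control library for 23 of 41 genes, where this held for 16.6% of all genes tested, and for 17 of the 20 genes that fell. Every knockout was above every control for 1 gene, E2f1 (18.5% of all genes). Mcm2, Mcm5 and Mcm6 were the 3 that fell with overlapping libraries. Knockouts were all below controls in the Vhl/Hif1a cross for 22 of 41 (12% of all genes), among them all of Mcm2 to Mcm7, and all above for 0 (11.8% of all genes). In the triple cross they were all below for 3 of 41 (8.34% of all genes), Tk1, Chaf1b and E2f2, and all above for 7 of 41 (6.97% of all genes), Mcm6, Gins4, Prim1, Pole2, Rfc4, Ccne2 and Dtl. The Vhl/Hif1a and Vhl/Hif2a lists of genes with all knockouts below controls shared 14 genes, 63.6% of the former and 60.9% of the latter. Of all 41 genes, 56.1% were on the Vhl/Hif2a list and 53.7% on the Vhl/Hif1a list. Lists of this length share many genes even when unrelated, and whether 14 exceeds that number was not tested. In bulk RNA, fewer cells in S phase and less RNA per cell cannot be told apart.

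Among the 9 licensing genes, 6 fell in the Vhl/Hif2a knockout, where 7.01% of all genes tested fell. That share stands beside the count of each role below, and no difference between roles was tested. Of the 6, only Mcm10 kept its call without each library in turn. Mcm10 (ENSMUSG00000026669, chr2:4989714-5012791, minus strand), which activates the loaded helicase, stood at 14.8, 13.7 and 12.7 CPM in the 3 controls and at 9.06, 9.03 and 8.79 CPM in the 3 knockouts. The groups did not overlap and the 3 knockouts were nearly equal (edgeR log2 fold change ± SE of -0.61 ± 0.11, adjusted p = 0.001). It was at 13.3, 13.4 and 12.7 CPM in the 3 controls and at 10.7, 9.09 and 10.2 CPM in the 3 knockouts in the Vhl/Hif1a cross, again with no overlap (-0.39 ± 0.11, edgeR adjusted p = 0.067). In the triple cross it was at 12.9, 11.7 and 12.1 CPM in the 3 controls and at 15.6, 11.7 and 12.2 CPM in the 3 knockouts, and the groups overlapped (0.10 ± 0.11). Cdc6, the loader of the MCM ring, was at 10.8, 8.57 and 12.1 CPM in the 3 controls and at 5.39, 8.38 and 6.37 CPM in the 3 knockouts in the Vhl/Hif2a libraries (-0.64 ± 0.16, edgeR adjusted p = 0.013).

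The ring subunits themselves were less even. All 6 of Mcm2 to Mcm7 in the Vhl/Hif1a cross separated the groups, with log2 fold changes of -0.44 to -0.22, but none passed the test. Mcm3 was at 79.3, 80.6 and 82.5 CPM in the 3 controls and at 67.0, 63.3 and 63.6 CPM in the 3 knockouts in that cross (-0.32 ± 0.12, edgeR adjusted p = 0.18). In the Vhl/Hif2a cross Mcm3 was at 96.0, 70.6 and 85.3 CPM in the 3 controls and at 71.8, 93.9 and 71.2 CPM in the 3 knockouts (-0.09 ± 0.12, edgeR adjusted p = 0.71), where each knockout lay above control 2. Mcm2 was at 59.1, 41.9 and 52.6 CPM in the 3 controls and at 29.0, 44.6 and 28.6 CPM in the 3 knockouts in the Vhl/Hif2a libraries (-0.59 ± 0.15, edgeR adjusted p = 0.015): knockouts 1 and 3 were below all controls, and knockout 2 lay above control 2. Mcm7 separated the groups in both crosses (Vhl/Hif2a -0.35 ± 0.09, edgeR adjusted p = 0.017; Vhl/Hif1a -0.22 ± 0.09, adjusted p = 0.31). Cdt1, which delivers the ring to CDC6 and is destroyed in S phase, was not called in any knockout (0.10 ± 0.17, -0.11 ± 0.17 and -0.35 ± 0.16 in the Vhl/Hif1a, Vhl/Hif2a and triple crosses).

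Of the 5 helicase partners, Cdc45 fell in the Vhl/Hif2a knockout. Cdc45 (ENSMUSG00000000028, chr16:18780447-18811987, minus strand) stood at 11.4, 12.5 and 14.8 CPM in the 3 controls and at 8.11, 8.35 and 8.22 CPM in the 3 knockouts there, with no overlap (-0.65 ± 0.13, edgeR adjusted p = 0.0018). It was at 11.7, 13.0 and 13.6 CPM in the 3 controls and at 11.1, 10.3 and 9.62 CPM in the 3 knockouts in the Vhl/Hif1a cross (-0.30 ± 0.13, edgeR adjusted p = 0.28), also with no overlap, and at 14.4, 12 and 13.9 CPM in the 3 controls and at 14.8, 12.5 and 10.8 CPM in the 3 knockouts in the triple cross. The 4 GINS subunits, which sit beside CDC45 in 1 complex, passed in no knockout. Gins2 was at 33.6, 39.0 and 38.3 CPM in the 3 controls and at 39.3, 38.9 and 35.4 CPM in the 3 knockouts in the Vhl/Hif2a libraries (0.03 ± 0.13, edgeR adjusted p = 0.92), and Gins4 had -0.01 ± 0.08. Gins1 (-0.40 ± 0.18) and Gins3 (-0.26 ± 0.17) were lower there without passing.

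Of the 6 polymerase and primase genes, Pole and Prim1 fell in the Vhl/Hif2a knockout. Pole (ENSMUSG00000007080, chr5:110286306-110337474, plus strand), the catalytic subunit of the leading-strand polymerase, stood at 26.7, 23.7 and 25.9 CPM in the 3 controls and at 13.7, 19.5 and 14.7 CPM in the 3 knockouts, with no overlap. This was the lowest log2 fold change of the 41 genes (-0.67 ± 0.14, edgeR adjusted p = 0.0026). Pole in the Vhl/Hif1a cross was at 19.4, 23.0 and 17.8 CPM in the 3 controls and at 16.7, 14.5 and 17.9 CPM in the 3 knockouts, where knockout 3 lay just above control 3 (-0.30 ± 0.14, edgeR adjusted p = 0.37). Prim1 (ENSMUSG00000025395, chr10:128015168-128030037, plus strand), the primase subunit that makes the RNA primer, was at 18.7, 19.6 and 18.4 CPM in the 3 controls and at 12.2, 14.7 and 12.9 CPM in the 3 knockouts in the Vhl/Hif2a libraries (-0.51 ± 0.15, edgeR adjusted p = 0.028). In the triple cross the order was turned: Prim1 was at 15.4, 12.1 and 16.7 CPM in the 3 controls and at 21.1, 18.3 and 17.7 CPM in the 3 knockouts, and every knockout was above every control, though without passing (0.37 ± 0.15, edgeR adjusted p = 0.43). Pold1, the catalytic subunit of the lagging-strand polymerase, had 0.02 ± 0.15 in Vhl/Hif1a and 0.02 ± 0.15 in Vhl/Hif2a, and passed in neither. Its controls in the latter were at 35.8, 31.1 and 32.5 CPM and its knockouts at 32.6, 37.6 and 30.5 CPM.

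Of the 7 genes of the clamp, its loader and lagging-strand joining, 3 fell in the Vhl/Hif2a knockout. Pcna (ENSMUSG00000027342, chr2:132249162-132253314, minus strand) was at 225, 206 and 223 CPM in the 3 controls and at 187, 194 and 174 CPM in the 3 knockouts, a small shift with no overlap (-0.24 ± 0.08, edgeR adjusted p = 0.0451). Lig1, the ligase that seals Okazaki fragments, was at 47.5, 33.8 and 41.1 CPM in the 3 controls and at 28.9, 31.1 and 28.1 CPM in the 3 knockouts, where each knockout was below each control (-0.47 ± 0.11, edgeR adjusted p = 0.0065). Rfc5, a subunit of the clamp loader, had -0.40 ± 0.10 (edgeR adjusted p = 0.0091). Pcna in the Vhl/Hif1a cross was at 206, 199 and 198 CPM in the 3 controls and at 189, 177 and 174 CPM in the 3 knockouts (-0.16 ± 0.08, edgeR adjusted p = 0.38) and Lig1 at 37.1, 37.4 and 36.5 CPM in the 3 controls and at 33.9, 34.8 and 30.2 CPM in the 3 knockouts (-0.16 ± 0.11, edgeR adjusted p = 0.61). Both separated the groups there by narrow margins. Fen1, the flap nuclease, and Rfc2, Rfc3 and Rfc4 passed in no knockout.

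Clspn (ENSMUSG00000042489, chr4:126556935-126593903, plus strand) encodes claspin, which links the fork to the checkpoint kinase CHK1, and it was the single gene of the 41 to fall in both double knockouts. It stood in the Vhl/Hif1a cross at 21.0, 22.8 and 18.8 CPM in the 3 controls and at 15.4, 15.7 and 14.2 CPM in the 3 knockouts (-0.47 ± 0.12, edgeR adjusted p = 0.032). In the Vhl/Hif2a cross it stood at 22.7, 21.2 and 25.5 CPM in the 3 controls and at 12.9, 16.5 and 14.5 CPM in the 3 knockouts (-0.66 ± 0.12, edgeR adjusted p = 7.8e-04). Neither pair of groups overlapped, while in the triple cross the values mixed, at 24.3, 21.2 and 27.7 CPM in the 3 controls and at 25.4, 23.2 and 25.9 CPM in the 3 knockouts. The Vhl/Hif1a call ended without control 1, control 2 or any 1 of the 3 knockouts (adjusted p up to 0.18), and the Vhl/Hif2a call held without each library. Rpa2, part of the single-strand binding protein, did not pass (-0.21 ± 0.11 in Vhl/Hif1a and -0.19 ± 0.11 in Vhl/Hif2a).

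Of the 4 genes of nucleotide supply, 3 fell in the Vhl/Hif2a knockout. The 4 genes summed to 219, 201 and 218 CPM in the controls and to 152, 153 and 160 CPM in the knockouts, 72.7% of control. Rrm2 (ENSMUSG00000020649, chr12:24708241-24714146, plus strand), the S phase subunit of ribonucleotide reductase, was at 72.0, 64.9 and 73.7 CPM in the 3 controls and at 47.1, 37.1 and 51.3 CPM in the 3 knockouts, well apart, with knockout 2 the lowest (-0.64 ± 0.10, edgeR adjusted p = 2.7e-04). It had the lowest adjusted p of the 41 genes. Rrm2 in the Vhl/Hif1a cross was at 63.1, 63.8 and 65.8 CPM in the 3 controls and at 51.1, 53.3 and 48.9 CPM in the 3 knockouts, also apart (-0.33 ± 0.10, edgeR adjusted p = 0.091), and in the triple cross at 63.0, 74.1 and 70.4 CPM in the 3 controls and at 72.1, 68.0 and 67.9 CPM in the 3 knockouts (0.00 ± 0.10). Rrm1, the large subunit of the same enzyme, was at 96.8, 87.4 and 94.5 CPM in the 3 controls and at 68.6, 75.8 and 73.1 CPM in the 3 knockouts in the Vhl/Hif2a libraries (-0.36 ± 0.10, edgeR adjusted p = 0.02) and at 81.0, 91.0 and 87.8 CPM in the 3 controls and at 71.4, 75.3 and 63.2 CPM in the 3 knockouts in the Vhl/Hif1a cross (-0.31 ± 0.10, edgeR adjusted p = 0.12). Both double crosses kept the groups apart for Rrm1, and the triple cross did not. Tyms, which makes thymidylate, had -0.43 ± 0.10 in the Vhl/Hif2a knockout (edgeR adjusted p = 0.0091), and Tk1, the salvage kinase, had -0.42 ± 0.14 (adjusted p = 0.0532).

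Of the 3 genes that restore chromatin behind the fork, Uhrf1 and Chaf1a fell in the Vhl/Hif2a knockout. Uhrf1 (ENSMUSG00000001228, chr17:56303321-56323486, plus strand), which reads hemimethylated DNA and recruits DNMT1, was at 48.0, 35.7 and 41.4 CPM in the 3 controls and at 25.4, 34.5 and 24.8 CPM in the 3 knockouts there, where knockout 2 came close to control 2 (-0.56 ± 0.14, edgeR adjusted p = 0.01). Uhrf1 in the Vhl/Hif1a cross was at 39.7, 45.0 and 35.3 CPM in the 3 controls and at 29.4, 31.6 and 30.6 CPM in the 3 knockouts, with no overlap (-0.39 ± 0.14, edgeR adjusted p = 0.17). Chaf1a and Chaf1b, subunits of the histone chaperone CAF-1, had -0.39 ± 0.11 (edgeR adjusted p = 0.028) and -0.08 ± 0.15 (adjusted p = 0.81) in the Vhl/Hif2a knockout.

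Of the 5 genes of G1 to S control, Ccne1 and E2f2 fell in the Vhl/Hif2a knockout. Ccne1, cyclin E1, was at 9.61, 8.22 and 11.7 CPM in the 3 controls and at 5.92, 6.15 and 6.55 CPM in the 3 knockouts in the Vhl/Hif2a libraries (-0.66 ± 0.14, edgeR adjusted p = 0.0045) and at 8.74, 9.38 and 8.60 CPM in the 3 controls and at 7.06, 5.92 and 7.43 CPM in the 3 knockouts in the Vhl/Hif1a cross (-0.39 ± 0.15, edgeR adjusted p = 0.21), and neither pair of groups overlapped. Its relative Ccne2 did not pass there (-0.14 ± 0.19, edgeR adjusted p = 0.72). E2f2, an activator E2F, was at 49.4, 47.4 and 44.1 CPM in the 3 controls and at 31.5, 32.3 and 30.6 CPM in the 3 knockouts in the Vhl/Hif2a libraries (-0.58 ± 0.13, edgeR adjusted p = 0.0062), with knockouts at near-equal levels. E2f1 in the Vhl/Hif2a cross was at 58.6, 60.4 and 66.1 CPM in the 3 controls and at 68.5, 71.1 and 68.8 CPM in the 3 knockouts: it was the 1 gene of the 41 with every knockout above every control there, but it did not pass (0.17 ± 0.12, edgeR adjusted p = 0.42). The difference between E2f1 and E2f2 was not tested. Dtl, which directs the destruction of CDT1, had -0.42 ± 0.16 in the Vhl/Hif2a knockout (edgeR adjusted p = 0.099).

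Vhl/Hif2a knockout 2 stood above its fellow knockouts for most of these genes. It had the highest value of its group for 33 of 41 genes, against 38.0% of all genes tested, and control 2 had the lowest of its group for 27 of 41 (28.7% of all genes). The 9 licensing genes summed to 566, 439 and 514 CPM in the controls and to 354, 477 and 352 CPM in the knockouts, so knockout 2 lay above control 2. By gene the libraries split. Rrm2 in knockout 2 was at 52.8% of the control mean, Ccne1 at 62.4%, Cdc45 at 64.6%, Mcm10 at 65.9% and E2f2 at 68.7%. Mcm2 was at 87.0% there and Mcm3 at 112%. With all libraries 1895 of 12900 genes tested passed in either direction. Without knockout 2, 24 of the 41 genes fell, where 1639 of 13111 genes tested passed. Without knockout 1 or without knockout 3, 10 of the 41 fell, where 1249 of 13130 and 1421 of 13132 genes passed. Without control 1 or control 3, 11 of the 41 fell, where 1456 of 13140 and 1513 of 13167 genes passed. The 9 genes whose call held without each library in turn were Mcm10, Cdc45, Pole, Rfc5, Lig1, Clspn, Rrm2, E2f2 and Ccne1.

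**Figure D3:**
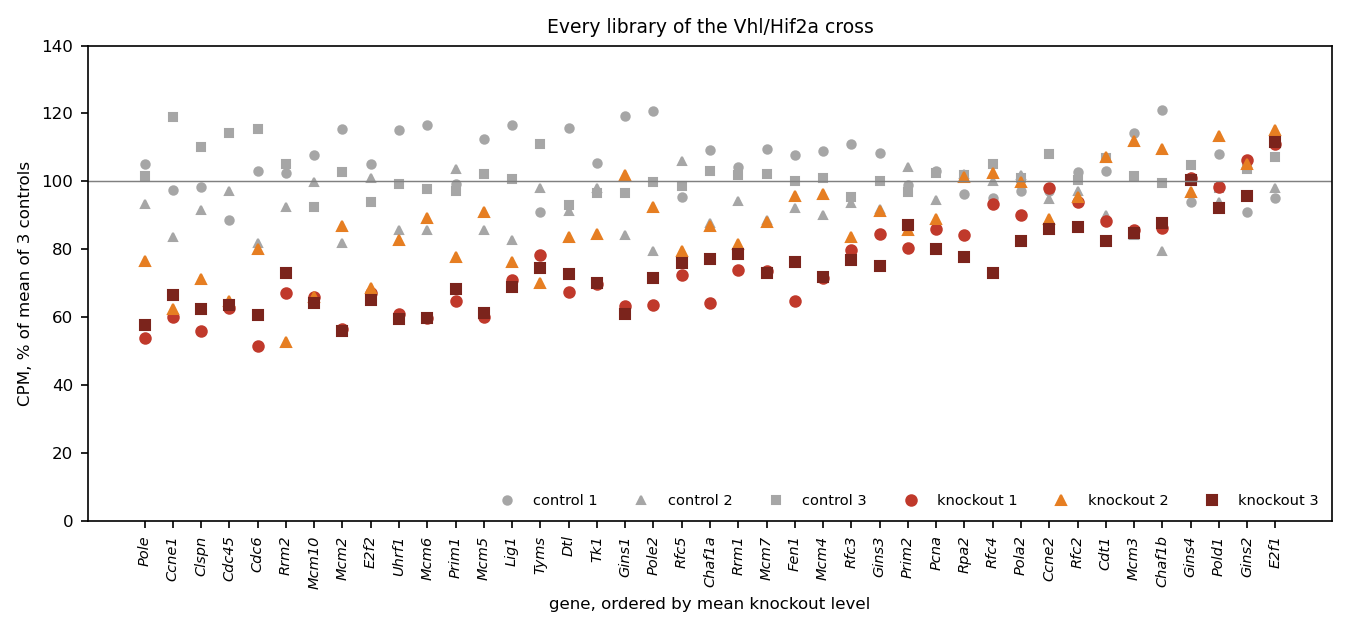
Level of each of the 41 genes (x axis) in each library of the Vhl/Hif2a cross, as a percent of the mean of the 3 controls (y axis). Knockouts 1 and 3 lie low for most genes, and knockout 2 (orange triangles) was at 112% for Mcm3 but at 52.8% for Rrm2.

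Differences between the knockouts' effects were tested directly. The fall in the Vhl/Hif2a cross differed from the change in the triple cross for 5 genes, all lower, where 3.08% of all genes tested were lower and 4.91% higher: Prim1 (-0.88 ± 0.21, edgeR adjusted p = 0.015), Pole (-0.76 ± 0.19, 0.021), Mcm10 (-0.72 ± 0.16, 0.0087), Clspn (-0.68 ± 0.16, 0.015) and Rrm2 (-0.64 ± 0.14, 0.0088). For 34 of the 41 genes this difference was below 0, with a median of -0.39 (0.01 over all genes). By DESeq2 it passed for 12, and by edgeR for 10 without Vhl/Hif2a knockout 2 and for 8 without Vhl/Hif2a control 2, triple control 1 or triple control 3. Calls over all genes in these fits are not given here, so the higher counts are not read as particular to the 41 genes. Of the 5, Pole lost its call without Vhl/Hif2a knockout 1 or 3 or without triple knockout 1 (adjusted p up to 0.069). The 2 double knockouts were not shown to differ: 0 of 41 genes passed by edgeR or DESeq2, where 2.44% of all genes did by edgeR, and 1 gene, Rrm2, was lower in Vhl/Hif2a at an unadjusted p under 0.05 (-0.31 ± 0.14). The median difference was -0.14 with 33 of 41 genes below 0, and a typical SE of 0.18 per gene leaves room for differences of that size. Between the Vhl/Hif1a and triple effects, 0 of 41 passed by edgeR or DESeq2 (2.04% of all genes by edgeR), and 11 were lower at an unadjusted p under 0.05. Their median difference was -0.22.

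**Figure D4:**
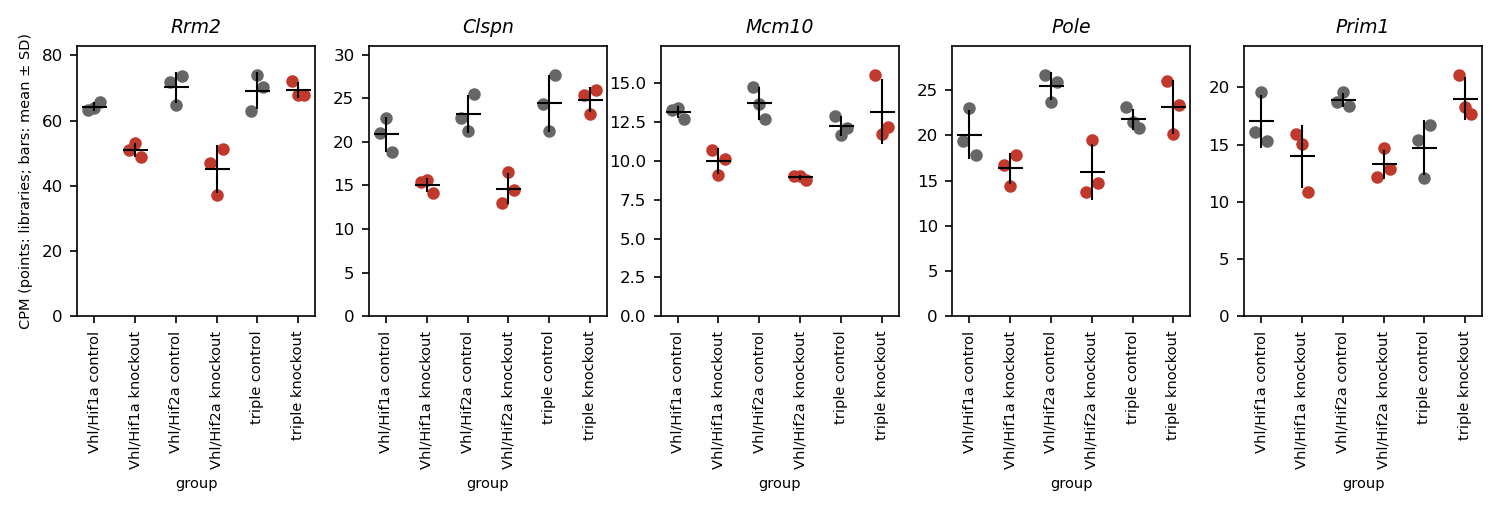
CPM (y axis) in each library of the 6 groups (x axis) for the 5 genes whose change differed between the Vhl/Hif2a and triple crosses. Points are libraries, and bars are means with SD (n = 3). Rrm2 in the Vhl/Hif2a knockouts lies between 37.1 and 51.3 CPM, below all controls.

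Few of the genes differed between the control groups. Between the Vhl/Hif2a and Vhl/Hif1a controls 0 of 41 passed by edgeR or DESeq2 (0.341% of all genes by edgeR), and 1 was higher at an unadjusted p under 0.05. The triple controls differed from the Vhl/Hif1a controls in E2f2 (0.58 ± 0.13, edgeR adjusted p = 0.019), where 2.98% of all genes were higher and 2.42% lower. They differed from the Vhl/Hif2a controls in E2f2 (0.52 ± 0.13, edgeR adjusted p = 0.039) and Mcm6 (-0.55 ± 0.15, edgeR adjusted p = 0.0473), where 1.54% of all genes were higher and 1.88% lower. E2f2 was at 57.6, 87.9 and 57.1 CPM in the triple controls, so 1 library, control 2, was far above the others. Without it the first difference was 0.35 (edgeR adjusted p = 0.029), and the second was 0.29 (edgeR adjusted p = 0.090). The first call held without triple control 2 but ended without Vhl/Hif1a control 2 or 3. The second also ended without any 1 of the 3 Vhl/Hif2a controls (edgeR adjusted p up to 0.13). Mcm6 was at 62.0, 65.0 and 64.2 CPM in the triple controls and at 109, 80.1 and 91.5 CPM in the Vhl/Hif2a controls, and this call ended without any 1 of the 6 libraries (adjusted p of 0.057 to 0.14). Triple control 2 also had the highest values of its group for E2f1 (60.0, 88.0 and 58.5 CPM) and the lowest for Prim1 (15.4, 12.1 and 16.7 CPM). Leaving it out kept the count of called genes in the triple knockout at 0.

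A further 89 replication genes, such as origin recognition subunits, other polymerase subunits and checkpoint partners, were tested beside the 41. In the Vhl/Hif2a knockout 17 fell and 1 rose (7.01% and 7.68% of all genes), with a median of -0.16. Dna2, a nuclease-helicase of Okazaki fragment processing, was at 92.0, 86.6 and 75.2 CPM in the 3 controls and at 40.4, 54.6 and 44.9 CPM in the 3 knockouts (-0.86 ± 0.12, edgeR adjusted p = 7.2e-05). The repressor E2Fs E2f8 (-0.79 ± 0.12, edgeR adjusted p = 2.3e-04) and E2f7 (-0.71 ± 0.12, edgeR adjusted p = 7.3e-04) and the cohesin acetyltransferase Esco2 (-0.71 ± 0.19, edgeR adjusted p = 0.016) followed. The gene that rose was Pole4, a small subunit of the leading-strand polymerase (0.22 ± 0.07, edgeR adjusted p = 0.0493), opposite to Pole itself. The Vhl/Hif1a knockout gave 3 that fell (1.42% of all genes), Dna2 (-0.48 ± 0.12, edgeR adjusted p = 0.03), Dck (-0.43 ± 0.11, edgeR adjusted p = 0.032) and Umps (-0.32 ± 0.07, edgeR adjusted p = 0.019), the latter 2 being nucleotide enzymes, and the median was -0.17. In the triple knockout 0 passed by edgeR, with 4 at an unadjusted p under 0.05 and a median of 0.05.

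Among 20 genes of G1 cyclins, CDK inhibitors and the Rb family, 1 rose and 3 fell in the Vhl/Hif2a knockout, with a median of -0.11. Over all genes tested 7.68% rose and 7.01% fell, so the counts are near those shares. The gene that rose was Cdkn1b, which encodes the inhibitor p27 of cyclin E kinases. It was at 66.0, 70.6 and 73.5 CPM in the 3 controls and at 126, 102 and 118 CPM in the 3 knockouts, with no overlap (0.72 ± 0.10, edgeR adjusted p = 7.1e-05). It did not pass in the Vhl/Hif1a (0.12 ± 0.10) and triple (0.09 ± 0.10) knockouts, and the Vhl/Hif2a change differed from both (by 0.60 ± 0.14, edgeR adjusted p = 0.028, and by 0.63 ± 0.14, edgeR adjusted p = 0.0092). Other CDK inhibitors fell in that knockout: Cdkn2a (-2.51 ± 0.48, edgeR adjusted p = 0.0014) and Cdkn2b (-2.25 ± 0.39, edgeR adjusted p = 7.0e-04), both at 2.39 CPM or lower in every library of the cross, and Cdkn2c (-0.40 ± 0.13, edgeR adjusted p = 0.0495). Cdk6, a G1 kinase, rose in the libraries labelled Vhl/Hif1a knockout (0.43 ± 0.11, edgeR adjusted p = 0.0498). It was the 1 gene of the 20 to rise there and 0 fell, where 2.22% of all genes rose and 1.42% fell.

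Mitosis genes, which are transcribed later in the cycle, are given for comparison. Of 46, 35 fell in the Vhl/Hif2a knockout (7.01% of all genes, median -0.54) and 6 fell in the Vhl/Hif1a knockout (1.42% of all genes, median -0.31). In the triple knockout 0 passed by edgeR (0.0388% of all genes, 4 at an unadjusted p under 0.05, median 0.10). Every knockout library was below every control for 44 of 46 in the Vhl/Hif2a cross (16.6% of all genes). This held for 28 of 46 in the Vhl/Hif1a cross (12% of all genes). Summed over the 46 genes, the Vhl/Hif2a controls were at 1822, 1800 and 1749 CPM and the knockouts at 1237, 1243 and 1260 CPM, so knockout 2 was as low as the other 2 there. Summed over the 41 replication genes, the same controls were at 1692, 1474 and 1626 CPM and the knockouts at 1224, 1422 and 1213 CPM. In the Vhl/Hif1a cross the replication sums were 1517, 1537 and 1523 CPM in the controls and 1345, 1291 and 1286 CPM in the knockouts. In the triple cross they were 1581, 1753 and 1625 CPM in the controls and 1680, 1608 and 1549 CPM in the knockouts. The sums of the double crosses kept the groups apart, and those of the triple cross mixed.

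**Figure D5:**
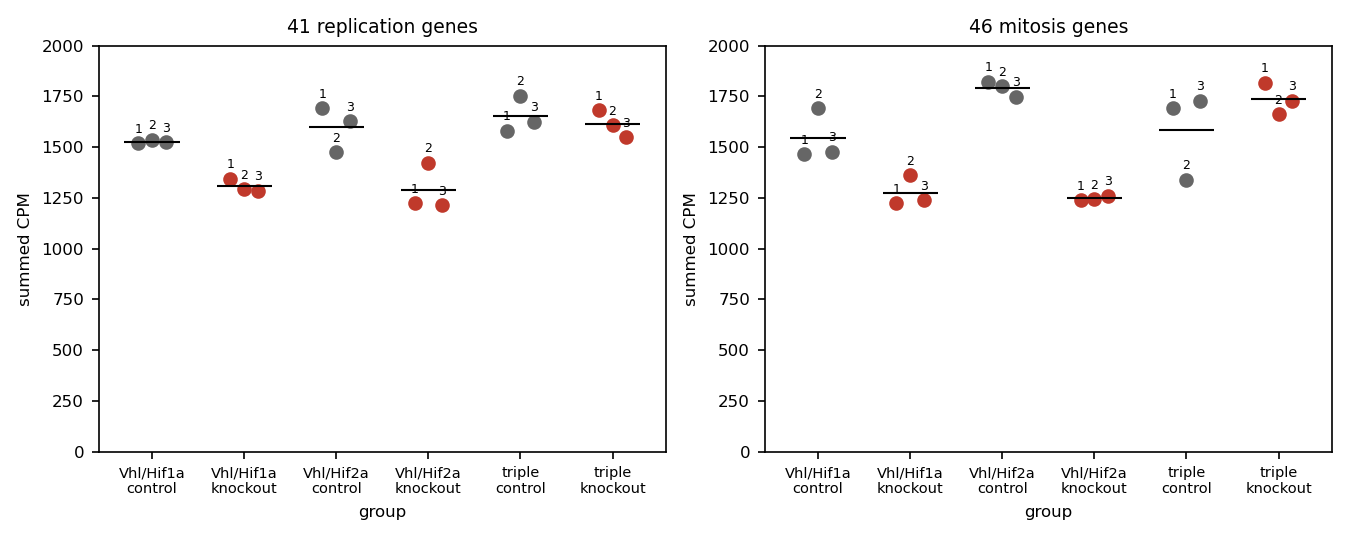
Summed CPM (y axis) of the 41 replication genes (left) and 46 mitosis genes (right) in each library, by group (x axis), with library numbers; lines are group means. Vhl/Hif2a knockout 2 has 1422 CPM of replication genes, above its fellow knockouts, and 1243 CPM of mitosis genes, level with them.

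Some markers of other cells moved in the same crosses. Dendritic cell markers, from cells that also carry CD11c, summed to 28.9 to 62.8 CPM in the Vhl/Hif2a controls and to 13.5 to 18.7 CPM in the knockouts, and 6 of 10 fell there (10 of 10 tested; 2 were under 1 CPM in every library). In the Vhl/Hif1a cross this sum was 29.2 to 40.2 CPM in the controls and 20.1 to 33.7 CPM in the knockouts, with 0 of 10 called by edgeR. Neutrophil markers, with Ly6g at 0, summed to 156 to 166 CPM in the Vhl/Hif1a controls and to 77.5 to 88.6 CPM in the knockouts, and to 123 to 204 and 127 to 158 CPM in the Vhl/Hif2a cross. Of the 7 tested, 3 fell and 1 rose in the Vhl/Hif1a knockout, and 2 fell and 1 rose in the Vhl/Hif2a knockout. Monocyte markers summed to 748 to 952 CPM in the Vhl/Hif1a controls and to 972 to 2229 CPM in the knockouts. In the Vhl/Hif2a cross they summed to 623 to 1124 CPM in the controls and to 1067 to 1565 CPM in the knockouts, which overlapped. Of the 6 tested, 2 rose in each double knockout. Lung epithelium markers summed to 158 to 558 CPM over all libraries. Of the 7 tested, 1 fell in the Vhl/Hif1a knockout and 1 rose in the Vhl/Hif2a knockout. Alveolar macrophage markers summed to 32426 to 35243 CPM in the Vhl/Hif2a controls and to 41208 to 42884 CPM in the knockouts. The same sums were 33994 to 35493 and 38700 to 45851 CPM in the Vhl/Hif1a cross, and 28196 to 37558 and 40661 to 41951 CPM in the triple cross. Of these 16 markers, 6 rose and 2 fell in the Vhl/Hif2a knockout, 1 rose and 1 fell in the Vhl/Hif1a knockout, and 1 rose in the triple knockout. Over all genes tested, 7.01% fell and 7.68% rose in the Vhl/Hif2a knockout, and 1.42% fell and 2.22% rose in the Vhl/Hif1a knockout. In the triple knockout 0.0388% passed. A count of 1 in lists this short is not read as a result. The part of these cells, and of the greater depth of the Vhl/Hif2a knockouts, in the changes of the replication genes was not tested.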

How the data were processed

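RNA of 18 libraries in 6 groups of 3 was analysed, grouped by the labels. The deposited table holds expected counts per gene, read from the values (89.3% were whole numbers to a tolerance of 1e-09). Per the submitters' processing notes, FastQC, cutadapt and STAR were used with GRCm38. Counting tool, strand setting and annotation were not given in the sources used here. Genes overlapping on opposite strands, and near-identical copies, may therefore share reads. Counts were rounded and 12900 of 32789 genes passed filterByExpr. edgeR 4.0.16 (R 4.3.3, limma 3.58.1) was fitted to all 18 libraries with TMM scaling and 1 coefficient per group, with quasi-likelihood tests adjusted over all genes tested (Benjamini-Hochberg). The procedure was tested on simulated counts. SE is the log2 fold change divided by the root of F. CPM use TMM-scaled library sizes. Depth was about 19230000 to 34015000 counts a library, and errors are those between libraries. Alternatives were other scaling, no filter, DESeq2 1.42.0, only the groups compared, a replicate block and each library left out.

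Gene positions and exon lengths come from the GRCm38 annotation and promoters from RefSeq. Members and gene lists were chosen with earlier results of these data known. Per-library values were printed for the member with the lowest p in the Vhl/Hif2a comparison and the one with the highest mean CPM of each role, for members called in a difference between effects, and for members called against the majority. Those of Mcm2, Cdc6, Mcm6, E2f2, Cdkn1b, Dna2 and Mki67 were added after their values were seen. From other lists, the 4 highest and 4 lowest called genes were named.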

Additional observations from a re-analysis of the deposited data

Results flagged for a closer look

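The 5 genes whose effect differed between crosses in a test of the difference were, by edgeR, Mcm10 (-0.72 ± 0.16, adjusted p = 0.0087), Prim1 (-0.88 ± 0.21, adjusted p = 0.015), Pole (-0.76 ± 0.19, adjusted p = 0.021), Clspn (-0.68 ± 0.16, adjusted p = 0.015) and Rrm2 (-0.64 ± 0.14, adjusted p = 0.0088), as log2 Vhl/Hif2a effect minus triple effect ± SE. For Mcm10, Clspn, Rrm2 and Pole the triple effect was between 0.00 and 0.10, so the difference is the size of the fall in the Vhl/Hif2a cross. For Prim1 the triple effect was 0.37 ± 0.15, and part of the difference is that higher level. Mcm10, Prim1, Clspn and Rrm2 passed without each of the 12 libraries in turn, and Pole passed in 9 of those 12 fits. All 3 Vhl/Hif2a knockouts were below all 3 controls for each of the 5 genes.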

How the results depend on the processing

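Scaling by DESeq2 size factors left every count of called genes within 1.5 times, and none of the called values recomputed changed sign under any alternative run. For the Vhl/Hif1a knockout (1 gene) the count was 4 with total counts only, 0 without the filter, 4 by DESeq2, 5 with only the groups compared in the fit, 6 without triple control 2 (chosen after seeing the data) and 0 to 1 over libraries left out. Calls over all genes there went from 469 to 861 without triple control 2 and to 653 by DESeq2. They were 498 with total counts only, 451 without the filter, 584 with only the groups compared and 275 to 360 over libraries left out. For the Vhl/Hif2a knockout (20) the count was 10 to 24 over libraries left out, where calls over all genes went from 1895 to between 1249 and 1639. For the Vhl/Hif2a minus triple difference (5) it was 12 by DESeq2 and 4 to 10 over libraries left out, and for the Vhl/Hif1a minus triple difference (0) 0 to 1 (1 without Vhl/Hif1a knockout 1). For the triple against Vhl/Hif1a controls (1) it was 2 with total counts only, 2 without the filter, 5 by DESeq2, 0 with only the groups compared and 0 to 3 over libraries left out (3 without triple control 1). For the triple against Vhl/Hif2a controls (2) it was 0 with only the groups compared and 0 to 1 over libraries left out. The cause of these moves was not tested, and where no count over all genes is given, a move may be shared by all genes. For the triple knockout, the difference between the double knockouts and the Vhl/Hif2a against Vhl/Hif1a controls, every setting gave 0.

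Libraries share replicate numbers, but same-numbered libraries did not deviate together (correlations of -0.22 to 0.20), so the numbers were not taken as pairs, and not every library correlated best with its own number. With the replicate block, 0 genes passed in the Vhl/Hif1a knockout and 12 in the Vhl/Hif2a knockout.

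With 3 libraries a group, an SE near 0.13 on the log2 scale limits what can be seen. The median Vhl/Hif1a value of -0.28 was short of the -0.47 ± 0.12 of Clspn, the 1 gene that passed there. A change of that median size can be missed by this test. Expected counts could not be checked against reads, and strand was not known.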

Other observations

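Of the mitosis genes that fell in the Vhl/Hif2a knockout, the 4 lowest were Mki67, a marker of cycling cells (-0.84 ± 0.18, edgeR adjusted p = 0.0034), Knl1, a kinetochore scaffold (-0.83 ± 0.22, edgeR adjusted p = 0.016), Cdc25c, the phosphatase that activates the mitotic kinase (-0.81 ± 0.21, edgeR adjusted p = 0.013), and Plk1, a kinase of mitotic entry (-0.76 ± 0.10, edgeR adjusted p = 2.5e-05). Mki67 was at 264, 260.1 and 223 CPM in the 3 controls and at 119.6, 166 and 133 CPM in the 3 knockouts. In the Vhl/Hif1a knockout they were Ccnb1, cyclin B1 (-0.52 ± 0.13, edgeR adjusted p = 0.029), Kif20a, a motor of cytokinesis (-0.43 ± 0.11, edgeR adjusted p = 0.034), Plk1 (-0.42 ± 0.10, edgeR adjusted p = 0.017) and Tpx2, a spindle factor (-0.40 ± 0.10, edgeR adjusted p = 0.026). The change differed between the Vhl/Hif2a and triple crosses for 25 of 46 mitosis genes, all lower in the former (3.08% of all genes were lower), and between the double knockouts for 0 of 46 by edgeR, with 11 at an unadjusted p under 0.05.

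Among the further replication genes, Dna2 was lower in both double crosses with no overlap, at 86.0, 85.0 and 78.0 CPM in the 3 controls and at 60.2, 61.6 and 56.9 CPM in the 3 knockouts in the Vhl/Hif1a cross. Its change in the Vhl/Hif2a cross differed from that in the triple cross (-0.94 ± 0.17, edgeR adjusted p = 0.0017). Cdkn1a, which encodes the CDK inhibitor p21, did not pass in the Vhl/Hif1a (0.43 ± 0.14, edgeR adjusted p = 0.12) or Vhl/Hif2a knockout (0.34 ± 0.14, edgeR adjusted p = 0.12).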
